A study of Mus musculus with 4 samples.

Results

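The cytosolic ribosome is built from ribosomal RNA and a set of ribosomal proteins, each encoded by its own gene. These genes were followed through single-cell RNA libraries of mouse bone marrow. Members were chosen by symbol: every gene whose name is Rpl or Rps with a number and at most 1 further letter (a, l or x), plus Rplp0, Rplp1, Rplp2 and Rpsa. The rule took 80 of the 31053 genes counted, 49 of the large and 31 of the small subunit, and used no measured value. Of the 80, 76 were among the 80 standard proteins of the mammalian ribosome, and Rpl3l, Rpl10l, Rpl39l and Rps27l are variant copies. Of the standard proteins outside the rule, Fau, Rps3a1 and Rack1 were read separately.

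The study asked what losing IL-6 does in mice that lack the actin-nucleating formin mDia1 and the microRNA miR-146a. It used this cross as a model of myelodysplastic syndrome that progresses to acute myeloid leukemia. In its single-cell data it described the mice lacking mDia1 and miR-146a as leukemic, with more monocytic blasts. All mice were C57/B6 and, per the labels, 12 months old, with constitutive deletions. TWT carried intact IL6, mDia1 and miR146a genes. IL-6 KO lacked IL6 alone, DKO lacked mDia1 and miR146a and kept IL6, and TKO lacked all of them. Marrow of femur and tibia was depleted of red cells and 1 library was made per genotype by 10x Genomics 3′ chemistry. The sources used here do not say how many mice were pooled, so genotype and library cannot be told apart, no test between genotypes was possible, and every interval (exact, 95%) reflects counting error alone.

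The libraries held 8423 (TWT), 8640 (IL-6 KO), 10866 (DKO) and 9013 (TKO) barcodes and between 61292684 and 85145074 unique molecular identifiers (UMIs), each of which marks 1 captured mRNA molecule. Barcodes outside 500 to 4000 detected genes or above 15% mitochondrial UMIs were dropped, which left 6794, 7476, 9627 and 7560. Library pairs shared between 19 and 36 barcodes. Diaph1, the gene of mDia1, stood at 163 and 178 CPM (the gene's UMIs scaled to a common library total) in TWT and IL-6 KO and at 11.4 and 12.4 CPM in DKO and TKO, as the labels require. Il6 could not check its deletion, since 3′ tags gave 9.89 and 8.60 CPM in the libraries labelled as lacking it and 0.807 and 0.235 in the others. Xist, read as 800 CPM in the IL-6 KO library and at no more than 7 UMIs in any other, set that library apart. Each kept cell was placed in 1 of 16 classes by its marker genes, and a class is called "-like" because the name rests on those markers alone. Between 195 and 635 cells per library stayed without a class. In the classes compared most closely below, at least 5 of the markers were at least 2-fold above the other cells.

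Ribosomal protein genes are transcribed in every cell, and in growing cells they take a large part of the mRNA. Most of their mRNAs begin with a C followed by a run of C and T, the 5′ terminal oligopyrimidine (TOP) motif, through which mTOR signaling and LARP1 adjust their translation as a group. Loss of a single copy of certain members, RPS19 among them, causes Diamond-Blackfan anemia in humans, and RPS14 lies on the same arm of a human chromosome as DIAPH1 and MIR146A in the region lost in a subtype of myelodysplastic syndrome. Neutrophils shut down much of their protein synthesis as they mature, whereas lymphocytes and progenitors keep many ribosomes.

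The start sites of 60 members were found in the RefSeq table of GRCm38.p6, which gave 72 start sites. At 20 of these (27.8%) the annotated first base lay in an unbroken run of at least 5 C or T on the transcribed strand, against 10.1% of 32851 start sites of all genes. The share was 5 of 13 (38.5%) for other genes known to carry TOP motifs and 4 of 74 (5.41%) for mitochondrial ribosomal proteins, whose mRNAs are not TOP mRNAs. The sequences below show 15 bases before the annotated start and 15 from it on, with the run in capitals, for 3 members among the most abundant or the highest in DKO (Rps9, Rps24, Rpl14) and 3 that stood lower in DKO (Rps27, Rpl38, Rpl39). They lie at chr7:3704026-3704055 (plus strand), chr14:24490663-24490692 (plus), chr9:120571502-120571531 (plus), chr3:90213634-90213663 (minus), chr11:114668565-114668594 (plus) and chrX:37085208-37085237 (minus), in that order.
Rps9: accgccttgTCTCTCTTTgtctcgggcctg
Rps24: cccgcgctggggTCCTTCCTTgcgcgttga
Rpl14: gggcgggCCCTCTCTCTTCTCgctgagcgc
Rps27: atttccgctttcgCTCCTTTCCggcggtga
Rpl38: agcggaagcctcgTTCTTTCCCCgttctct
Rpl39: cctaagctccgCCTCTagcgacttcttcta
In DKO against TWT members with the run had lower medians than those without it, over all cells and in each of the 6 classes compared. They were 0.04 and 0.14 in classical monocyte-like and 0.59 and 0.64 in immature neutrophil-like cells. In DKO against TKO classical monocyte-like cells went the other way (0.18 and 0.13). The difference was not tested. In DKO against TWT over all cells the median log2 ratio was 0.34 for the 20 measured members with a run and 0.41 for the 37 without, and in TKO against TWT it was -0.03 and 0.02. A run at an annotated start is a match of letters and not a measured TOP motif.

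In TWT marrow 77 of the 80 members reached 50 CPM, and 42 of the 100 genes with the most UMIs were members (43, 43 and 40 in IL-6 KO, DKO and TKO). CPM of different genes count tags captured at the 3′ end and were not divided by gene length. Whether short and long mRNAs were captured alike was not measured. Rps9, of the small subunit, led with 3034, 3020, 4004 and 3018 CPM in TWT, IL-6 KO, DKO and TKO. Rps24 followed with 2801, 2833, 3154 and 2581 CPM, and Rpl13, of the large subunit, with 2653, 2730, 3573 and 2775. Rps16 (2504 CPM in TWT) and Rps27a (2333), which is made fused to ubiquitin, completed the first 5. The 10 most abundant members held 23.4% of the ribosomal protein UMIs in TWT, so the pool was spread over many genes, and large subunit members had 1.09 UMIs for each of the small subunit (1.10, 1.11 and 1.10 in the other libraries).

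At the low end stood the variant copies. Rpl10l, an X-derived retrogene used in testis, gave 0 UMIs in TWT, DKO and TKO and 1 in IL-6 KO. Rpl3l, the muscle copy of Rpl3, gave 133, 120, 524 and 141 UMIs (3.08, 2.53, 6.84 and 2.89 CPM in TWT, IL-6 KO, DKO and TKO). Rpl39l gave 141 UMIs in TWT and 13, 18 and 22 in IL-6 KO, DKO and TKO, that is 3.26 CPM against 0.275, 0.235 and 0.451. In TWT its level was 9.62 CPM in granulocyte-monocyte progenitor-like cells, 8.10 in T cell-like cells and 4.74 in classical monocyte-like cells, so the excess of TWT was not confined to 1 class. Next from below came the standard member Rpl13a (146, 153, 137 and 150 CPM) and Rps27l (196, 190, 216 and 208), a copy of Rps27 known as a target of p53. Rpl13a and Rpl13 overlap an annotated gene on the same strand, where reads can be lost to the neighbour, and 20 members are overlapped by some other gene of the count files.

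The share of a cell's UMIs taken by the members followed its class (the plot of share by class and library). In TWT it was 28.6% in the stem and progenitor class (HSPC-like) and 28.3% in T cell-like cells, then 23.7% in NK cell-like, 22.9% in erythroid-like, 21.7% in mature B cell-like and 19.9% in granulocyte-monocyte progenitor-like cells. Plasmacytoid dendritic cell-like cells stood at 18.4%, basophil and mast cell-like cells at 17.9%, classical monocyte-like cells at 17.7% and pro/pre-B cell-like cells at 17.2%. Plasma cell-like cells stood at 7.70%, and the neutrophil classes came last with 4.06% (immature) and 2.39% (mature). The medians of single cells kept HSPC-like above T cell-like cells in TWT (29.8% and 27.2%), but their quartiles overlapped (24.5% to 32.1% and 21.4% to 33.6%). Immature neutrophils, which still make granule proteins, stood above mature ones in every library, at 4.06 against 2.39%, 4.19 against 2.41%, 6.35 against 3.73% and 4.18 against 2.31% in TWT, IL-6 KO, DKO and TKO. Immature cells were deeper, and among cells of 4000 to 8000 UMIs the gap was smaller, at 2.47 against 2.28%, 2.50 against 2.26%, 4.04 against 3.18% and 2.36 against 2.09%.

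**Figure D1:**
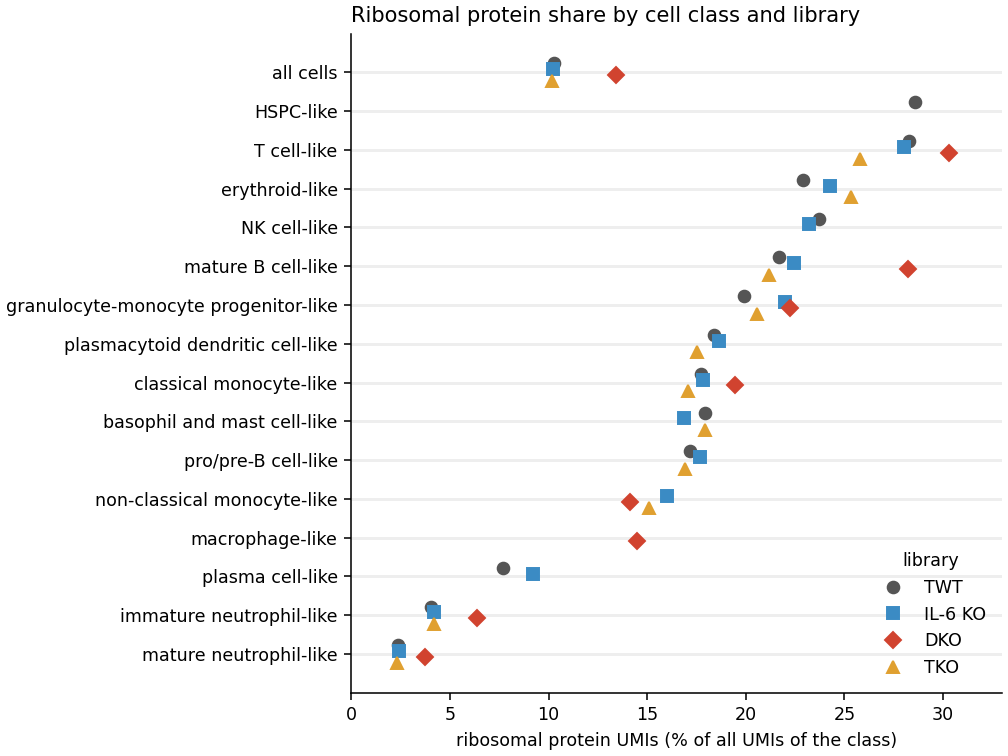
Percent of UMIs from ribosomal protein genes (horizontal axis) for all kept cells and by marker-gated class (vertical axis), 1 point per library with at least 50 cells, with no error bars because the counting intervals are smaller than the points. In the neutrophil classes the DKO points (6.35% and 3.73%) stand above those of TWT, IL-6 KO and TKO (at most 4.19% and 2.41%), and in mature B cell-like cells DKO stands at 28.2% against at most 22.4%.

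Over all kept cells the members took 10.3, 10.2, 13.4 and 10.2% of the UMIs in TWT, IL-6 KO, DKO and TKO. The DKO share was 1.31 times that of TWT and 1.32 times that of TKO, while TKO and IL-6 KO were within 2% of TWT (0.989 and 0.994 times). This ratio rested on the upper limit of 4000 genes per cell. When every barcode of at least 200 genes was taken it was 0.943 against TWT and 0.973 against TKO, because the cells above the limit (646, 423, 275 and 588 in TWT, IL-6 KO, DKO and TKO) held 30.1, 20.6, 8.90 and 25.9% of each library's UMIs at ribosomal protein shares of 24.8, 25.8, 19.1 and 25.6%. The mix of classes moved with the library as well. Classical monocyte-like cells numbered 546 in TWT and 1688 in DKO, non-classical monocyte-like cells 41 and 1749, and mature neutrophil-like cells 2236 and 1431. With the class shares of DKO weighted by the mix of TWT the share was 12.9%, and with the class shares of TWT in the mix of DKO it was 11.9%. The comparisons within classes below do not depend on the mix of classes, but the mix of states inside a class could still differ between libraries. Division markers, for example, were carried by 25.6% of classical monocyte-like cells in TWT and 12.7% in DKO.

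Among the neutrophils the members stood higher in DKO than in any other library. In immature neutrophil-like cells (1553, 1786, 2164 and 1825 cells in TWT, IL-6 KO, DKO and TKO) the DKO share was 1.56 times that of TWT (1.56 to 1.57) and 1.52 times that of TKO. The median cell had 2.98, 2.99, 4.81 and 2.96%, and 87.2% of DKO cells lay above the median TWT cell. In mature neutrophil-like cells (2236, 2665, 1431 and 2444 cells) the ratio was 1.56 (1.55 to 1.57) against TWT and 1.61 against TKO, with cell medians of 1.99, 2.16, 2.98 and 2.05%, and 93.4% of DKO cells lay above the median TWT cell. The cells of the other 3 libraries overlapped throughout, and the interquartile range of DKO mature neutrophils (2.45% to 3.63%) overlapped that of TWT (1.65% to 2.62%) only at its lower end.

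The neutrophils of DKO also held more UMIs. The median mature neutrophil-like cell had 3093.5, 3138, 5812 and 3279.5 UMIs in TWT, IL-6 KO, DKO and TKO, of which 64, 70, 166 and 70 were from members, and the median immature one had 8813, 8542.5, 10872 and 8821 UMIs with 256, 252.5, 521 and 255 from members. Within bins of UMIs per cell the DKO share stayed above TWT in both classes (the plot of share by depth), although DKO cells were the deeper ones within most bins, with medians of 3284 against 2809 UMIs in mature neutrophils between 2000 and 4000. For immature neutrophils it was 2.17 times TWT between 2000 and 4000 UMIs, 1.63 times between 4000 and 8000, 1.49 times between 8000 and 16000 and 1.39 times above. For mature ones it was 1.09 times between 500 and 2000 UMIs, then 1.80, 1.40 and 1.24 times in the next 3 bins. In the shallowest bin of mature neutrophils the DKO share (3.56%), over 36 cells, lay beside 3.58% in IL-6 KO and 3.43% in TKO, so there DKO did not stand apart. S100a8 and S100a9, the alarmins that dominate neutrophil mRNA, took 33.4% of UMIs of immature neutrophil-like cells in TWT and 27.9% in DKO (33.2% and 31.0% in IL-6 KO and TKO), and their part in the result was not tested. Division markers were carried by 33.5 to 34.3% of immature neutrophil-like cells across the libraries. The DKO share exceeded that of TWT both in dividing (8.07% against 5.24%) and in other cells (5.02% against 2.95%).

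**Figure D2:**
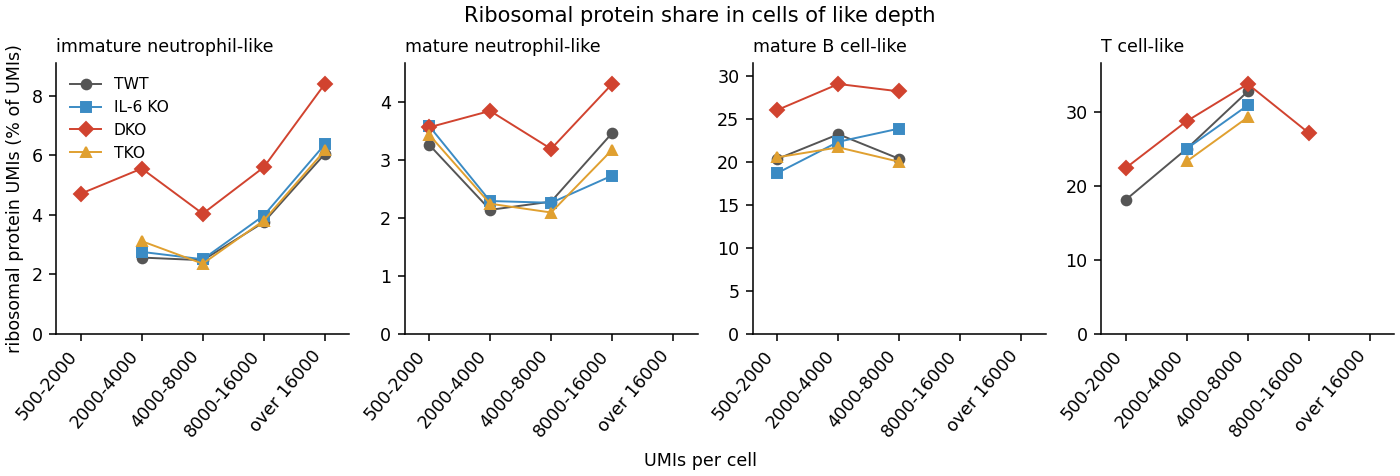
Percent of UMIs from ribosomal protein genes (vertical axis) against the UMIs per cell in bins (horizontal axis), 1 panel per class and 1 line per library, each point over at least 20 cells. In immature neutrophil-like cells the DKO line (5.56, 4.04, 5.60 and 8.40% from the bin of 2000 to 4000 UMIs up) lies above the TWT line (2.56, 2.47, 3.75 and 6.05%) in each bin.

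Free RNA that leaked from lymphocytes would add member UMIs to neutrophils, so 6 lymphocyte genes (Cd79a, Cd79b, Ly6d, Trbc1, Lck and Ms4a4b) were read in them. Their summed level in immature neutrophil-like cells was 27.1, 26.9, 25 and 39.8 CPM in TWT, IL-6 KO, DKO and TKO, against 869, 884, 407 and 1043 over all cells. If free RNA had the average make-up of its library, the free part was at most 3.12, 3.04, 6.15 and 3.81% of UMIs. These genes do not bound free RNA that came mostly from other cells, such as monocytes. In mature neutrophil-like cells the limit was 10.4, 8.31, 9.54 and 8.90%. With that much RNA of the library's average subtracted, the shares were 3.86, 4.0, 5.88 and 3.95% in immature and 1.48, 1.71, 2.70 and 1.54% in mature neutrophil-like cells, and DKO stood at 1.52 and 1.83 times TWT.

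Among the other classes with at least 50 cells in both TWT and DKO the differences were smaller, with mature B cells the most different. In mature B cell-like cells (741, 534, 424 and 738 cells) the share was 21.7, 22.4, 28.2 and 21.2%, the DKO ratio was 1.30 against TWT (1.30 to 1.31) and 1.33 against TKO, and 85.1% of DKO cells lay above the TWT median at nearly the same depth (medians of 2524 and 2735.5 UMIs). Malat1, a nuclear RNA, took 1.94, 2.02, 1.24 and 1.63% of their UMIs and mitochondrial genes 6.79, 6.45, 6.16 and 5.73%, whose part in the result was not tested. Classical monocyte-like cells had 17.7, 17.9, 19.5 and 17.1%, or 1.10 times TWT in DKO, where they were deeper (medians of 7942 UMIs in TWT and 9811.5 in DKO). Between 4000 and 8000 UMIs the shares were 17.5, 18.3, 18.0 and 17.0%, so DKO was below IL-6 KO there. Between 8000 and 16000 UMIs they were 17.8, 17.6, 19.8 and 17.0%, with DKO the highest. T cell-like cells (332, 254, 989 and 206 cells) had 28.3, 28.0, 30.3 and 25.8%, so DKO was 1.07 times and TKO 0.912 times TWT. T cells with effector markers numbered 37, 28, 351 and 33 and had 20.8, 25, 26.6 and 21.9%, so DKO was the highest. Those with naive markers, 25, 19, 13 and 16 cells, had 23.0, 31.4, 21.5 and 24.5%, so DKO was the lowest. Granulocyte-monocyte progenitor-like cells had 19.9, 22.0, 22.3 and 20.6%, so DKO (1.12 times TWT) differed little from IL-6 KO, and with every barcode of at least 200 genes the ratio was 0.949. Non-classical monocyte-like cells went the other way, with 14.2% in DKO against 15.1% in TKO (0.939 times). HSPC-like, plasmacytoid dendritic, plasma, erythroid and pro/pre-B cell-like cells of DKO numbered 14 or fewer and were not compared. Too few cells in TWT or DKO also kept 4 further classes from comparison. In TWT and DKO these were macrophage-like (29 and 179), NK cell-like (75 and 40), conventional dendritic cell-like (36 and 25) and basophil and mast cell-like cells (83 and 2).

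Single members were compared as measured genes, which needed 50 CPM in 1 library of the pair and 30 UMIs in the pair as a whole, and were counted when they were at least 25% higher or at least 20% lower (the same fold in either direction). In DKO against TWT over all cells 44 of 77 measured members were higher and 1 (Rps27) lower by this rule, against 35.9% and 26.7% of all measured genes, and Rpl29 alone was at least 2-fold higher (background 6.39%). The median member stood at 0.39 on the log2 scale and the median gene at 0.12. With all UMIs of the members as the denominator instead, which divides every member by the same factor, 7 members were higher, and with every barcode of at least 200 genes 1 was.

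By the same rule 63 of 76 measured members were higher and 0 lower in DKO immature neutrophil-like cells, read against TWT (background 29.6% and 29.3%), and 7 were at least 2-fold higher (background 3.79%). In mature neutrophil-like cells 60 of 75 were higher and 1 lower (background 25.8% and 39.3%) and 22 at least 2-fold (background 6.11%), with a member median of 0.72 beside -0.14 for all genes. In mature B cell-like cells 45 of 77 were higher and 2 lower (background 22.5% and 40.2%), with medians of 0.37 and -0.13. Classical monocyte-like cells had 13 higher and 8 lower of 77 (background 16.9% and 41.1%), T cell-like cells 17 and 10 (background 32% and 33.5%) and granulocyte-monocyte progenitor-like cells 20 and 8 (background 31.4% and 27.9%), where 2 were higher with every barcode of at least 200 genes. In those 3 classes the count of higher members was at or below the background. Scaled to the members' own UMIs, the counts of higher members were 9 in immature neutrophils, 26 in mature neutrophils, 7 in B cells and 6 each in monocytes and granulocyte-monocyte progenitors.

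DKO was also set against TKO, a comparison that shares the DKO library with the one above. In immature neutrophil-like cells 66 of 76 members were higher and 0 lower (background 22% and 27.4%), in mature ones 70 of 75 and 0 (background 23.1% and 42.3%) and in B cells 47 and 0 of 77 (background 15.3% and 43.4%). Non-classical monocyte-like cells had 2 higher and 12 lower (background 19.8% and 37.7%), with a member median of -0.10. The pairs without DKO had fewer members past the rule over all cells. TKO against TWT had 2 higher and 6 lower of 77 over all cells (background 7.18% and 3.19%), and IL-6 KO against TWT 0 and 0 (background 3.54% and 2.31%). In some classes more members passed the rule. In TKO against TWT 14 of 75 were lower in mature neutrophils (background 4.35%) and 14 of 77 in T cells (background 10.6%). The 11 of 77 lower in plasmacytoid dendritic cell-like cells were near the background (12.8%). So were the 23 of 77 higher in plasma cell-like cells of IL-6 KO against TWT (background 24.7%).

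**Figure D3:**
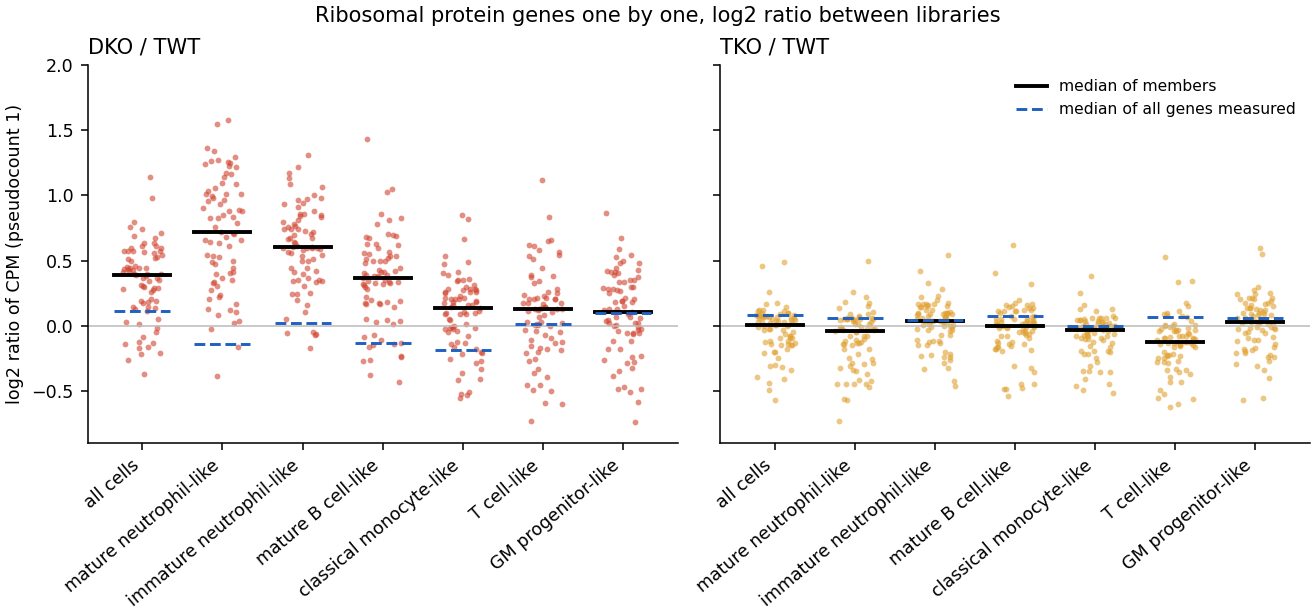
Log2 ratio of CPM (vertical axis, pseudocount 1 CPM) of each measured ribosomal protein gene, 1 point per gene, by class (horizontal axis) in DKO against TWT and TKO against TWT, with lines at the medians of members (solid) and of all measured genes (dashed). The DKO points of immature and mature neutrophil-like cells are centred on 0.60 and 0.72, and the TKO points over all cells on 0.00.

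Rplp0, the base of the P stalk that recruits elongation factors, stood apart in DKO. It had 1705, 1896, 3359 and 2040 CPM over all cells of TWT, IL-6 KO, DKO and TKO, 612, 731, 1521 and 769 in immature neutrophils and 273, 337, 820 and 327 in mature ones. Its DKO to TWT ratio was 2.48 (2.43 to 2.54) in immature and 3.0 (2.86 to 3.15) in mature neutrophils. It was also higher in DKO than TWT in T cells (3768, 4142, 6726 and 4182 CPM, log2 0.84), in B cells (2282, 2596, 4728 and 2543 CPM, 1.05) and in classical monocytes (3844, 4298, 5570 and 4282 CPM, 0.53), and in TKO it stood 0.26 above TWT over all cells. DKO was the highest library in each of these classes.

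Rpl29, a basic protein of the large subunit that is dispensable for life in mice, was the member with the highest ratio over all cells, with 457, 469, 1007 and 643 CPM in TWT, IL-6 KO, DKO and TKO (2.21-fold in DKO against TWT, 2.17 to 2.24, log2 1.14). It was at 230, 224, 537 and 309 CPM in immature neutrophils, 91.3, 100, 269 and 129 in mature ones, 709, 819, 1914 and 1090 in B cells and 1053, 1057, 2293 and 1520 in T cells. TKO lay between TWT and DKO each time, 0.49 above TWT on the log2 scale over all cells. Rps2, at the entry of the mRNA channel, had a like pattern over all cells, with 1436, 1399, 2348 and 1970 CPM (log2 0.71 in DKO and 0.46 in TKO against TWT), and in granulocyte-monocyte progenitor-like cells DKO and TKO were level at 6790 and 6823 CPM against 4518 in TWT.

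High ratios occurred in both subunits, and over all cells the medians of DKO against TWT were 0.40 for small and 0.38 for large subunit members. Rpl6 had 1002, 1024, 1741 and 1057 CPM over all cells (log2 0.80), Rpl14 705, 668, 1195 and 735 (0.76) and Rpl21 859, 846, 1437 and 920 (0.74), with TKO close to TWT. In mature neutrophils Rpsa, which encodes the small subunit protein also known as the laminin receptor, had 215, 191, 554 and 180 CPM (1.36), Rpl10a 84.8, 66.0, 217 and 66.9 (1.34) and Rps19 244, 222, 598 and 188 (1.29). The other members at least 2-fold higher there included Rps7, Rpl19, Rpl8, Rpl24, Rpl26, Rps24, Rpl3, Rpl21, Rpl15, Rps4x, Rpl32, Rpl10, Rps20, Rpl14, Rpl6, Rpl29 and Rplp0, of both subunits. In immature neutrophils the members past 2-fold were Rplp0, Rpl29, Rpl10a, Rps2, Rpl3, Rps4x and Rpsa. In B cells Rpl29, Rplp0 and Rpl21 (2181, 2234, 4441 and 2437 CPM, log2 1.03) passed it (background 2.22%), followed by Rpl14 (0.86) and Rpl8 (0.83), and in T cells Rpl29 alone did (background 4.13%), followed by Rplp0, Rpl21 (0.66), Rpl14 (0.65) and Rpl24 (0.62). In classical monocytes the highest were Rpl29 (0.85), Rpl14 (0.82), Rps2 (0.67), Rplp0 (0.53) and Rpl6 (0.49), below 2-fold.

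Of 75 members measured in each of the 6 classes, 41 stood higher in DKO than TWT in all 6, where 33.3% of 1053 genes did. Rpl6, Rpl8, Rpl11, Rpl14, Rpl21, Rpl24, Rpl29, Rplp0 and Rps2 did so by at least 25% throughout, 9 of 75 beside a background of 8.36%. Rps27 and Rpl37a stood lower in all 6, 2 of 75 beside 25.3% of all genes. Rps27, a zinc-binding protein of the small subunit, had 1075, 1097, 833 and 722 CPM over all cells in TWT, IL-6 KO, DKO and TKO. It was lower in both mDia1-deficient libraries in T cells (4210, 4190, 2771 and 2775 CPM), granulocyte-monocyte progenitors (967, 1176, 579 and 656) and classical monocytes (1359, 1513, 955 and 967). In B cells its level was 4160, 4276, 3455 and 2866 CPM. The libraries that lack mDia1 and miR-146a were the lower pair each time, DKO at -0.37 and TKO at -0.57 on the log2 scale against TWT over all cells.

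Rps29, Rpl37a and Rpl38, all small proteins, had a like pattern. Rps29 had 1621, 1626, 1445 and 1150 CPM over all cells and 3952, 3715, 2799 and 2684 in T cells, Rpl37a 5603, 5206, 3382 and 3899 in T cells, and Rpl38 2478, 2466, 1646 and 1676. In TKO against TWT 14 members were lower in all 10 classes compared (among them Rpl23a, Rpl35, Rpl37, Rpl37a, Rpl38, Rpl39, Rplp2, Rps15, Rps21, Rps26, Rps27, Rps28 and Rps29), beside 6.84% of 760 genes, and Rps27 and Rps29 were at least 20% lower in each (background 0.658%), with log2 ratios of -0.66 to -0.38 and -0.57 to -0.40. Rpl29, Rps2, Rplp0, Rpl15, Rpl21 and Rps3 were higher in all 10, beside 10.5% of genes. In IL-6 KO against TWT no member was lower and 2 (Rpl13 and Rpl28) were higher in all 12 classes compared (0.393% and 3.73% of 509 genes), and Rps27 ranged from -0.05 to 0.35 and Rpl29 from -0.16 to 0.30. In DKO against TWT the lowest 5 were Rps27, Rps15, Rpl31, Rpl37a and Rps29 in immature neutrophils (-0.17 to -0.05), Rps27 (-0.38), Rpl37a (-0.16), Rps21, Rpl38 and Rps29 in mature ones, Rpl38, Rpl37a, Rps27, Rpl31 and Rpl35 in B cells (-0.43 to -0.24), Rpl37a, Rps27, Rpl38, Rps29 and Rps21 in T cells (-0.73 to -0.49), and Rps29, Rpl39, Rpl37a, Rps27 and Rpl35 in classical monocytes (-0.55 to -0.42). Over all cells Rps27, Rpl37a (-0.27), Rpl31 (-0.21), Rpl38 (-0.21) and Rps29 (-0.17) were the lowest 5.

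**Figure D4:**
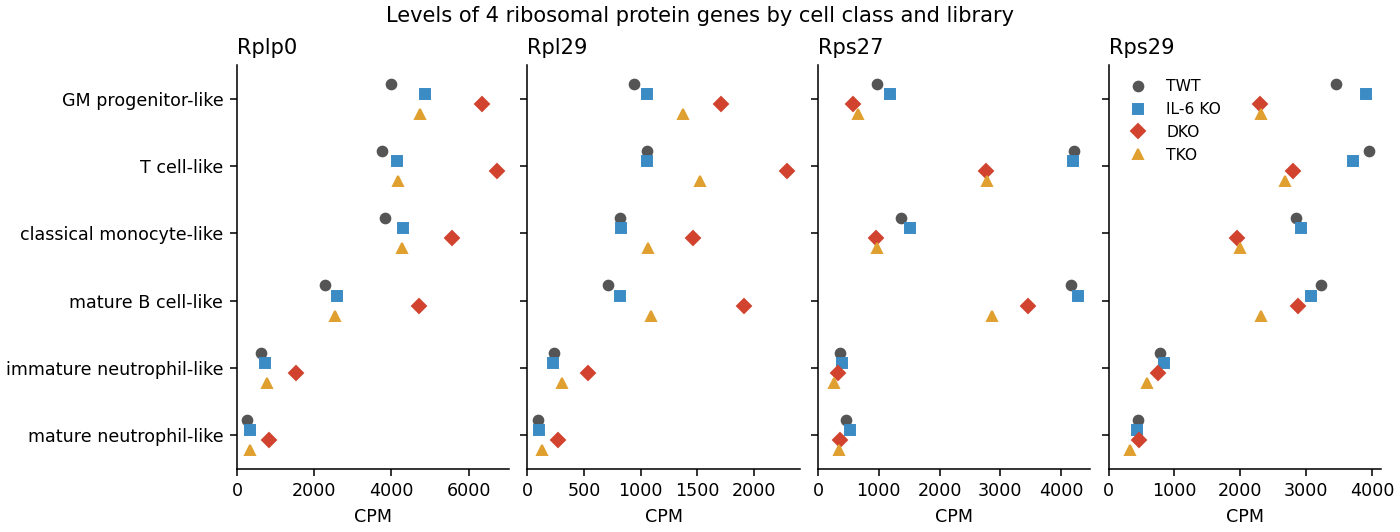
CPM (horizontal axis) of Rplp0, Rpl29, Rps27 and Rps29 by class (vertical axis), 1 panel per gene and 1 point per library, drawn without error bars. DKO is the highest library for Rplp0 and Rpl29 in each class, and for Rps27 in T cell-like cells DKO and TKO stand at 2771 and 2775 CPM against 4210 and 4190 in TWT and IL-6 KO.

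Most of the members that stood lower share a property that the rule did not use, a short coding sequence. Coding length was taken from GENCODE M21, with the stop codon left out. Rps27 encodes 252 nucleotides, Rps29 168, Rpl38 210, Rpl39 153 and Rpl37a 276, whereas Rplp0 encodes 951 and Rps2 879, with Rpl29 at 480. Over all cells the median log2 ratio of DKO against TWT was 0.14 for the 26 measured members below 400 nucleotides, 0.41 for the 22 between 400 and 500 and 0.56 for the 29 above, and in TKO against TWT it was -0.15, 0.00 and 0.07. Over the 77 members Spearman's rho between coding length and log2 ratio was 0.70 in DKO against TWT and 0.67 in TKO against TWT (Pearson's r 0.62 and 0.58), 0.45 in DKO against TKO and 0.31 in IL-6 KO against TWT. These are descriptions across genes of the same libraries, which are not independent replicates, and DKO and TKO share the TWT library as denominator.

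The ordering recurred in each class compared. In DKO against TWT rho was 0.57 in granulocyte-monocyte progenitors, 0.65 in immature neutrophils, 0.63 in mature neutrophils, 0.59 in classical monocytes, 0.60 in T cells and 0.71 in B cells, and in TKO against TWT it lay between 0.54 and 0.70 over the 10 classes. In IL-6 KO against TWT it ranged from -0.10 to 0.55. Over other genes, of all lengths, rho was negative in DKO against TWT (-0.38, n = 2569) and in TKO against TWT (-0.27, n = 2373). Their DKO medians in the same bins of length were 0.19, 0.35 and 0.04. These rose from the shortest bin to the middle one, as in the members, and were lowest in the longest. That last bin has no upper limit, whereas the longest measured member has 1257 nucleotides, so the ranges of length differ. In T cells, where the pool as a whole differed least, the DKO medians by length bin were -0.15, 0.13 and 0.21, so the short members were on the lower side and the long ones on the higher side. Rpl41 (75 nucleotides) and Rps27l (252) were exceptions, at 0.14 each in DKO and 0.11 and 0.08 in TKO against TWT. Longer members could also stand lower, as Rps15 (435 nucleotides, -0.14) and Rpl13a (609, -0.09) did in DKO against TWT over all cells, and Rpl23a (468) was among those lower in all 10 classes of TKO. Without Rpl29 and Rps27 rho was 0.70 and 0.67, and with every barcode of at least 200 genes 0.60 and 0.71. With those barcodes the DKO medians moved down to -0.42 below 400 nucleotides and 0.0074 from 500 up, so the order by length was kept while the level and, for short members, the sign changed. Differences between libraries in fragment length or capture of short mRNAs were not measured, and their part in the result was not tested.

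**Figure D5:**
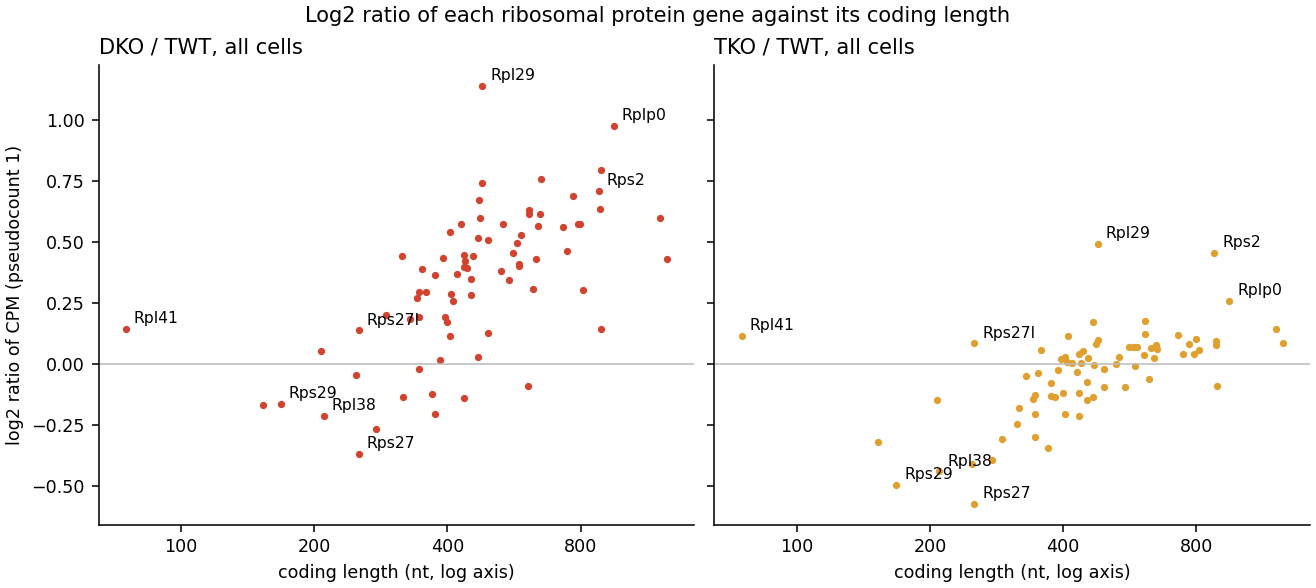
Log2 ratio of CPM over all cells (vertical axis, pseudocount 1 CPM) against coding length in nucleotides (horizontal log axis), 1 point per measured ribosomal protein gene, in DKO against TWT and TKO against TWT. Spearman's rho is 0.70 and 0.67, with Rpl41 and Rps27l as short members above 0.

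Members tied to human marrow failure are given here whatever their ratios. Rps14 had 1905, 1870, 2318 and 1720 CPM over all cells in TWT, IL-6 KO, DKO and TKO (log2 0.28 in DKO against TWT), with 538, 565, 848 and 534 in mature neutrophils (0.66) and ratios near 0 in T cells (-0.05) and classical monocytes (-0.04). Rps19 had 2057, 1975, 2710 and 1894 CPM (0.40), at 0.78 in immature neutrophils and 0.38 in B cells, but -0.26 in granulocyte-monocyte progenitors. Rpl5 and Rpl11 bind Mdm2 together with 5S RNA when ribosome assembly is disturbed. Rpl5 was at 738, 693, 814 and 692 CPM (0.14), with 0.54 in mature neutrophils and -0.19 in T cells. Rpl11 was at 1431, 1380, 2131 and 1459 (0.57), at least 25% higher in all 6 classes of the kept cells (0.33 to 0.90). Of the 18 genes listed for Diamond-Blackfan anemia 7 were at least 25% higher and 1 at least 20% lower over all cells in DKO against TWT, near the 35.9% of all measured genes that were higher and below the 26.7% that were lower. The count was 12 and 0 in immature neutrophils (background 29.6% and 29.3%), 13 and 1 in mature neutrophils (25.8% and 39.3%) and 2 and 3 in T cells (32% and 33.5%). Among all measured members 63 of 76 were higher in immature and 60 of 75 in mature neutrophils, so a high count there was not particular to the listed genes.

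The make-up of the pool differed between classes in ways that recurred in all 4 libraries. In mature neutrophils 2 of 78 members were at least 2-fold above their median over classes and 4 below. The like count over all genes was not made, so these departures were not read as particular to ribosomal protein genes. In mature neutrophils Rps9 alone took 9.87, 9.86, 7.43 and 10.5% of all ribosomal protein UMIs in TWT, IL-6 KO, DKO and TKO, which is 1.56 to 2.07 on the log2 scale above its median over classes, with 2357, 2380, 2770 and 2427 CPM. Rpl3l, the rare copy, gave 80, 66, 83 and 85 UMIs there (10.1, 6.95, 9.57 and 9.49 CPM), against 22, 28, 80 and 21 in immature neutrophils and 0 to 3 in T cells and in mature B cells of each library, while Rpl3 itself was -1.89 to -1.43 from its own median. Rpl3l also gave 231 UMIs (22.7 CPM) in non-classical monocyte-like cells of DKO and 11 UMIs (27.6 CPM) in those of TKO. Rpl14, Rpl36a and Rps18 were likewise at least 2-fold below their medians in mature neutrophils. Neither Rps9 nor Rpl3l is overlapped by another gene of the count files.

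Elsewhere fewer members stood out. Rpl31 (1.45 to 1.64) and Rpl10 (1.0 to 1.14) stood above their medians in the plasmacytoid dendritic class of the 3 libraries with enough cells, and Rps2 (1.20 to 1.46) in the erythroid class. Rps27 was lower in granulocyte-monocyte progenitors (-1.45 to -1.18), and Rps27l in T cells (-1.98 to -1.33) and B cells (-2.00 to -1.54). The 4 members on the X chromosome (Rpl10, Rpl36a, Rpl39 and Rps4x) had a median log2 ratio of -0.01 in IL-6 KO, the library with Xist, against TWT, beside -0.02 for the autosomal ones.

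Outside the symbol rule, Fau (2885, 2950, 3756 and 3125 CPM in TWT, IL-6 KO, DKO and TKO), Rps3a1 (1886, 1918, 2570 and 2020) and Rack1 (977, 949, 1307 and 982) had log2 ratios of 0.38, 0.45 and 0.42 in DKO against TWT, close to the member median. The paralog Rpl36al had 91.5, 87.0, 167 and 136 CPM (0.86 and 0.56), and Rpl22l1 255, 249, 270 and 262 (0.08 and 0.04).

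Other parts of the translation machinery were read from 14 lists. Of 25 measured initiation factors of 29 listed, 12 were higher and 5 lower in DKO against TWT over all cells by the same fold rule (median 0.31, beside 35.9% and 26.7% of all measured genes), the highest being Eif3i (96.9, 87.2, 195 and 111 CPM in TWT, IL-6 KO, DKO and TKO, log2 1.0), Eif6, which keeps the subunits apart (70.7, 66.8, 141 and 82.9 CPM, 0.98), and Eif3f (262, 255, 488 and 288 CPM, 0.89). Eif4a2 (-0.42) and Eif4b (-0.41) were lower. Of 6 measured elongation and termination factors 2 were higher, near the background, led by Eef1a1, which delivers aminoacyl-tRNA (2422, 2387, 3614 and 2354 CPM, 0.58). Of the 19 other TOP genes 10 were higher and 4 lower (median 0.33), with Pabpc1, the poly(A) binding protein, as the lowest (414, 400, 271 and 340 CPM, -0.61). In immature neutrophils the same list had 11 higher and 2 lower of 16 measured (median 0.50, background 29.6% and 29.3%), and in classical monocytes 2 and 5 of 19 (background 16.9% and 41.1%).

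Mitochondrial ribosomal proteins, which serve another ribosome, also stood higher: 21 of 32 measured genes of 77 listed were higher and 0 lower in DKO over all cells (median 0.48, background 35.9% and 26.7%). In T cells, where the cytosolic members had a median of 0.12, 36 of 44 were higher (median 0.66, background 32%), and in classical monocytes 11 of 46, with 1 lower (background 16.9% and 41.1%). Few of the genes that build ribosomes were measured, with 7 of 35, of which Nhp2 (0.58) and Ebna1bp2 (0.48) were higher and Ubtf (-0.42), a transcription factor for ribosomal RNA genes, lower. Of the mTOR and Myc control genes 4 of 13 were measured. Eif4ebp1, an mTOR-controlled repressor of initiation, had 94.8, 104, 177 and 111 CPM (0.90), Rheb 0.59 and Eif4ebp2 -0.51. Of 12 p53 targets 3 were measured, with Bax at 64.6, 58.6, 145 and 73.7 CPM (1.15) and Trp53inp1 at 90.8, 90.9, 27.9 and 68.2 (-1.67). Jun, an early gene that tissue dissociation induces, had 36.3, 32.4, 177 and 56.2 CPM (2.25). The summed share of the dissociation list in immature neutrophils was 0.030, 0.031, 0.063 and 0.030% of UMIs in TWT, IL-6 KO, DKO and TKO, and in mature ones 0.266, 0.237, 0.186 and 0.189%. Its part in the higher shares of DKO was not tested.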

How the data were processed

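Single-cell RNA of bone marrow was measured in 4 libraries, 1 per genotype. The authors deposited whole-number UMI counts per gene and barcode, not normalized, made with Cell Ranger (3.0.2 in the file headers) on mm10. The submitters' processing notes also name Seurat 4. No per-sample column of another series was present. The members, lists and tests were chosen with earlier results of these data known.

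Cells were limited to 500 to 4000 genes and 15% mitochondrial UMIs. A marker was present with at least 1 UMI and a share of the cell's UMIs above its mean over libraries. A cell took the class with the highest fraction of its markers present, with at least 3 present and no tie. Counts were summed per class and library and given as CPM or as a percent of UMIs. Classes were compared with at least 50 cells in both libraries. Log2 ratios have a pseudocount of 1 CPM, were counted at 25% higher (20% lower) and at 2-fold, and stand beside the share of all measured genes past the same fold. Intervals are exact binomial (Clopper-Pearson) or Poisson at 95%. Doublets were called with Scrublet in scanpy 1.11.5 on the kept cells and removed in an alternative. Free RNA was estimated from 6 lymphocyte genes in neutrophils and from S100a8 and S100a9 in classical monocytes, T and B cells. In classical monocyte-like cells S100a8 and S100a9 took 0.539% of UMIs in TWT and 1.30% in DKO. How much of this the monocytes made themselves was not measured. Only the fold rule for single genes was tried on simulated counts, which held no variation between cells or libraries. Python was 3.11.15, with pandas 2.3.3, numpy 2.4.6, matplotlib 3.10.9 and scipy 1.17.1.

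Genes named are the 5 highest and 5 lowest members by CPM in TWT, the 5 highest and 5 lowest ratios of DKO against TWT over all cells and in the neutrophil, classical monocyte, T and B cell classes, members past 2-fold in any class, the paralogs, Rps14, Rps19, Rpl5 and Rpl11, and the measured genes of other lists with the largest ratios. Members of the length and pool comparisons were named after their values were seen. A few genes that the rules would name are not reported here by name.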

Additional observations from a re-analysis of the deposited data

Results flagged for a closer look

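Among members of which DKO and TWT were compared in 6 classes, 6 genes were at least 25% higher in 1 class and at least 20% lower in another. With 1 library per genotype the difference between classes was not tested in any of them. The share of all genes with such opposite calls was not computed, so the count was not read as particular to the members. In single classes 16.9 to 32% of all measured genes were higher and 27.9 to 41.1% lower by the same rule. On the log2 scale of DKO against TWT, Rpl22, a protein of the large subunit, was at 0.35 in immature neutrophil-like and -0.36 in T cell-like cells. Rpl36a was at 0.50 in immature neutrophil-like and -0.34 in T cell-like cells. Rpl39 was at 0.34 in immature neutrophil-like and -0.53 in classical monocyte-like cells. Rpl35 was at 0.44 in mature neutrophil-like and -0.42 in classical monocyte-like cells. Rps28 was at 0.71 in mature neutrophil-like and -0.33 in classical monocyte-like cells. Rpl23a was at 0.47 in mature neutrophil-like cells and -0.51 in granulocyte-monocyte progenitor-like cells. In each gene the higher ratio was in a neutrophil class, where the share of the whole pool in DKO exceeded that of TWT by the largest ratios among the 6 classes.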

How the results depend on the processing

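No paired analysis was possible because each genotype had 1 library. Of the alternatives, the cells of 4000 to 8000 UMIs, the cells without division markers and the subtraction by lymphocyte genes were added after the data were seen. Ratios of shares are DKO against TWT unless named. With every barcode of at least 200 genes they were 0.943 over all cells (0.973 against TKO, with TKO against TWT 0.969 and IL-6 KO against TWT 0.915), 0.949 in granulocyte-monocyte progenitors, 1.07 in monocytes, 1.06 in T cells and 1.29 in B cells. As a mean over cells they were 1.35 (1.42 against TKO, 0.950 and 0.940), 1.65 in immature and 1.43 in mature neutrophils, 1.08, 1.10 and 1.28 in monocytes, T and B cells. Without genes above 1% of UMIs they were 1.18 (1.22, 0.976 and 0.998), 1.07 in progenitors, 1.44, 1.51, 1.10, 1.03 and 1.28. With the stricter gate they were 1.10 in progenitors, 1.5, 1.52, 1.13 in monocytes and 1.28 in B cells. Without doublets they were 1.30 (1.32 against TKO, 0.998 for IL-6 KO), 1.55, 1.64, 1.05 in T and 1.26 in B cells. With free RNA subtracted they were 1.12 in monocytes and 1.26 in B cells, and by lymphocyte genes 1.52 and 1.83 in neutrophils. Without dividing cells they were 1.06 in progenitors, 1.70, 1.57, 1.08, 1.06 and 1.29. In cells of 4000 to 8000 UMIs they were 1.35 (1.5, 0.897 and 0.997), 1.63, 1.40, 1.03, 1.03 and 1.39.

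The count of members at least 25% higher was 1 over all cells with at least 200 genes (0 against TKO, 1 in TKO against TWT, 2 in progenitors), 1 in TKO against TWT as a mean over cells, and 25 (29 against TKO) without genes above 1%. Scaled to the members' UMIs it was 7 over all cells (1 against TKO), 6 in progenitors and in monocytes, 9 and 26 in neutrophils and 7 in B cells. The other 65 counts stayed within 1.5 times. A pseudocount of 10 CPM and no minimum moved no count by more than 1.5 times. The cause of these shifts was not tested beyond the values in the report.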
